A study of Sus scrofa with 80 samples.

Results

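Interleukins, chemokines and their receptors carry messages between leukocytes, blood vessels and the cells of an organ. A chemokine binds to receptors on a leukocyte and directs its movement, and some chemokines are made at rest while others are made upon stimulation by interferon or bacterial products. Interleukins are secreted proteins that regulate growth, differentiation and activation of leukocytes, and several of their receptors share subunits, such as IL6ST (gp130) for the IL6 family and IL2RG for the IL2 family.

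Genes of these families were taken by name from a customized one-color Agilent microarray for the Göttingen minipig. A gene was a member if its name on the array began with IL, CCL, CXCL, CCR or CXCR and a digit, or with CX3C, XCL, XCR or ACKR. This gave 92 of 23722 genes. They comprised 9 homeostatic chemokines, 16 inflammatory chemokines, 12 chemokine receptors, 25 interleukin ligands, 24 interleukin receptors, 4 binding or related proteins and 2 further genes (CCL18 and IL28A). Of the 92 names, 78 were symbols of pig genes in RefSeq, and names such as CCL18, CXCL1 and IL28A were not.

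Total RNA came from 72 tissue samples of untreated animals. Spleen, bone marrow, liver, kidney and 3 brain regions (cortex, hypothalamus and cerebellum) came from animals of 1 week, 4 weeks, 2 months and 4 months of age, with 1 sample of each sex, and from a male of 2 years. Testis was sampled at the same 5 ages and ovary at the 4 younger ages, with 1 sample each. Renal pelvis of the 2-year male was hybridized in addition. The labels do not say whether the tissues of an age and sex came from the same animal, so p-values measure the spread between these samples only. The 2-year male was raised at another site from day 74 on, with other food and another formulation of pentobarbital, and its arrays lay on 2 slides of their own, so that age, housing and slide cannot be told apart for it. All values are log2 of the quantile-normalized intensity, and since probes differ in brightness a level is compared between samples only, never between genes.

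The labelled tissues carried their defining markers. All 3 measured markers of spleen and bone marrow were higher in both, whereas only 2 of 4 cerebellar markers were higher in cerebellum, as were 2 of 4 in bone marrow. All 4 measured kidney markers, 4 of 5 liver markers and all 9 measured neutrophil and granulocyte precursor markers were higher in kidney, liver and bone marrow, respectively, and 4 of 5 brain markers were higher in each brain region. For 71 of 72 samples the most similar sample was of the same tissue. The exception was bone marrow of the 2-year male, whose nearest sample was a 4-week female spleen. Its summed intensity of the 9 neutrophil markers was 2991, against 69816 in the 4-month male, and that of the 7 erythroid markers was 6017 against 72930. Whether this sample is bone marrow is therefore in doubt, and it entered no test other than the alternative that adds the 2-year male to the age comparison. In these tissue extracts, fewer cells of a type and less RNA per cell cannot be told apart.

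Of the 92 members, 25 were well above background in all 72 samples and 9 in none of them (CCR1, XCR1, XCL1, IL16, IL1B, IL1F10, IL36A, IL9 and IL21R), while 14 were well above background in 1 to 7 samples. XCR1, a receptor of cross-presenting dendritic cells, was also listed by accession, and the probes of that entry gave tissue means from 4.66 to 7.47 with the highest in spleen, whereas the probes named XCR1 stayed at means of 2.00 to 3.25. The 95th percentile of the negative controls lay between 2.34 and 3.45 on the log2 scale. The 8 technical repeats of 1 kidney had a median standard deviation of 0.14 over the members. For 13 members the array held only probes that the manufacturer's naming marks as cross-hybridizing, among them CXCR3, CCL3L1, CCL14, CCL24, CXCL1 and IL4I1, so that related genes may share their signal.

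Each tissue was compared with the mean of the other 6 over the 56 samples up to 4 months. Testis, ovary and renal pelvis were not part of this comparison, and "other tissues" below leaves them out. A difference passed with an adjusted p under 0.05 in limma and at least 1 log2 unit, and 36 members passed in at least 1 tissue. They were 5 of 9 homeostatic chemokines, 5 of 16 inflammatory chemokines, CCL18, 5 of 12 chemokine receptors, 8 of 25 interleukin ligands, 11 of 24 interleukin receptors and 1 of the 4 related proteins, and the other 56 passed in none. In spleen, 22 members (23.9%) were higher, against 8.83% of all genes, and 3 (3.26%) were lower, against 10.1%. In liver, 15 (16.3%) were higher, against 9.89%, and 4 (4.35%) lower, against 11.6%. In bone marrow, 12 (13%) were higher, against 10.5%, and 4 (4.35%) lower, against 12.1%. In kidney, none was higher, against 8.91%, and 6 (6.52%) were lower, against 8.97%, while 3 were higher with the scanner's processed signal and with the authors' normalized values. The brain regions had the opposite balance. Cerebellum had 2 members higher and 16 (17.4%) lower, against 9.78% and 10.1% of all genes. Hypothalamus had 4 higher and 14 (15.2%) lower, against 9.87% and 7.88%. Cortex had 5 higher and 13 (14.1%) lower, against 10.6% and 9.43%. The median difference of the members was 0.14 in spleen, 0.15 in bone marrow and 0.07 in liver, beside 0.01, 0.01 and -0.05 over all genes, and -0.19 in cerebellum, -0.25 in hypothalamus and -0.21 in cortex, beside -0.06, -0.11 and -0.11.

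**Figure D1:**
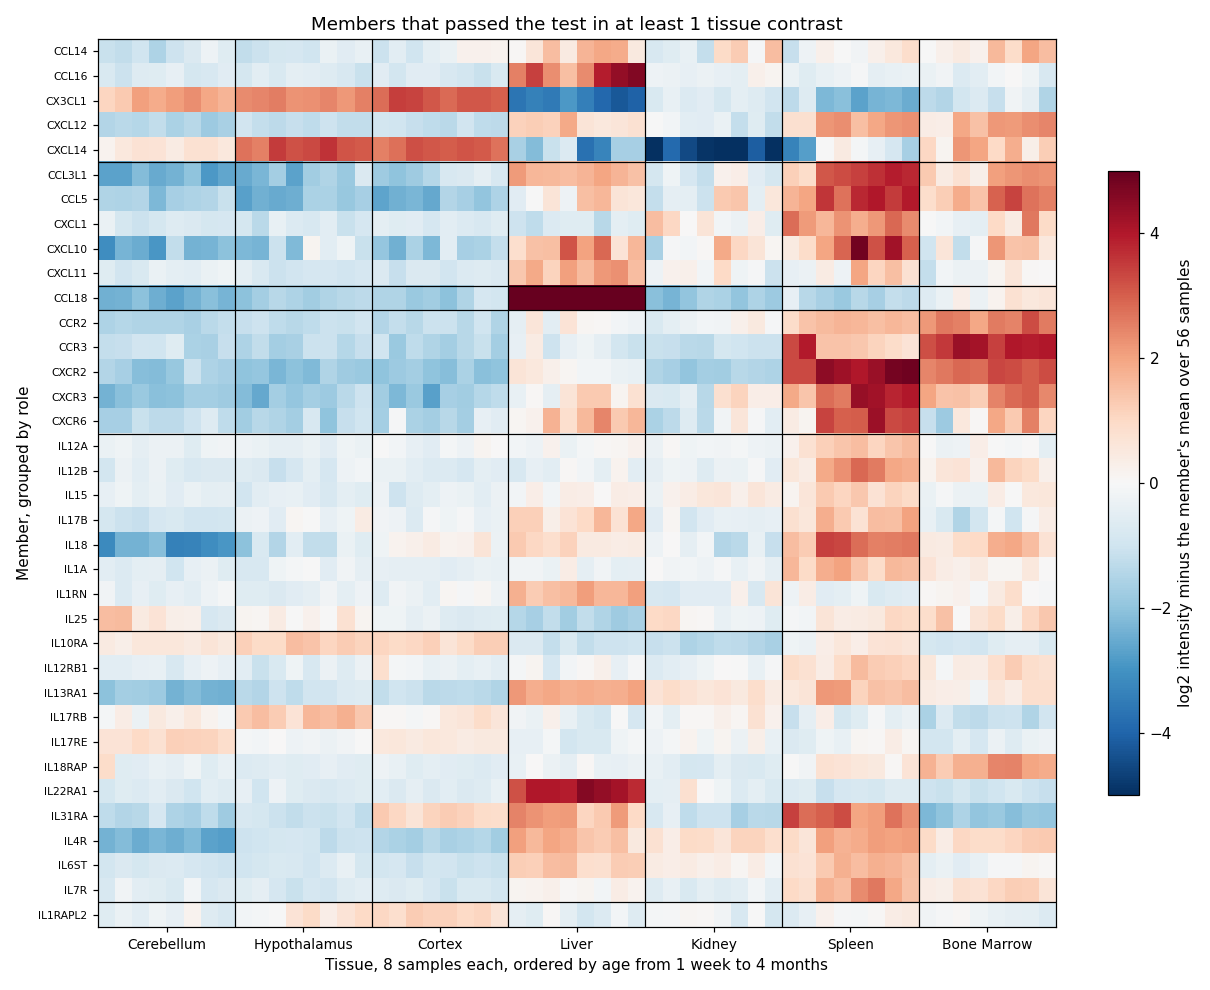
Heat map of the 36 members that passed the test in at least 1 tissue (rows, grouped by role) over 56 samples (columns, ordered by tissue and age). Color gives the log2 intensity minus the member's mean over the 56 samples, and differences beyond 5 in size share the darkest color. CCL18 and IL22RA1 stand out in liver, the chemokine receptors in spleen and bone marrow, and CX3CL1 and CXCL14 in the brain regions.

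Among the chemokines, the probes named CCL18 had the largest difference in liver. CCL18 is known in man as a product of macrophages and dendritic cells that attracts lymphocytes. The name was no symbol of a pig gene in RefSeq, so which pig gene these probes measure is open, here and below. The 8 livers ranged from 14.91 to 15.54 with a median of 15.36, while the 48 other samples ranged from 4.16 to 7.60. The mean difference was 9.87 log2 units or 936-fold (SE 0.13, adjusted p = 1.1e-52, limma), and the groups did not overlap. CCL16 is a chemokine known for its expression in liver. It ranged from 5.19 to 8.31 in liver (median 6.65) and was at most 3.94 in the 48 other samples. It was at least 11.7-fold higher (adjusted p = 9.0e-26, limma), and here "at least" means that the fold was computed against the lowest signal above background where the dim group had no measurable level. Its 8 livers spread widely, with a standard deviation of 1.12, and the 4-month livers (8.08 in the female and 8.31 in the male) were the brightest.

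CX3CL1 (fractalkine), a membrane-bound chemokine of neurons that is recognized by microglia, was highest in the brain. Cortex samples ranged from 12.91 to 13.58 (median 13.22), hypothalamus from 12.30 to 12.69 (median 12.52) and cerebellum from 11.19 to 12.45 (median 12.01). The difference from the other tissues was 12.2-fold in cortex, 6.86-fold in hypothalamus and 4.24-fold in cerebellum. Liver was at the other end, with 5.86 to 7.24 (median 6.51), 19-fold lower than the mean of the other tissues (adjusted p = 1.4e-31, limma).

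CXCL14, a chemokine made constitutively by many epithelia, followed a different order. It ranged from 12.46 to 13.56 in hypothalamus (median 13.12) and from 12.48 to 13.17 in cortex (median 13.00), which were 12.6-fold and 10.8-fold higher than the respective other tissues. Bone marrow followed with 10.09 to 12.16 (median 11.08) and cerebellum with 10.12 to 10.73 (median 10.57). The hypothalamus and cortex ranges overlapped, as did those of bone marrow and cerebellum. Of the 7 tissues, kidney was lowest with 4.27 to 6.05 (median 5.01), 48.3-fold below the others (adjusted p = 1.2e-24, limma). All 8 kidneys lay below 6.23, the lowest value of the 48 other samples. Testis, which was not compared, had 4.63 at 2 months and 3.02 at 4 months.

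Of the 16 inflammatory chemokines, CCL3L1, CCL5, CXCL1 and CXCL10 had their highest mean in spleen. CCL5 (RANTES), which T cells and natural killer cells release, ranged from 10.87 to 13.18 in spleen (median 12.71) and from 10.04 to 12.53 in bone marrow (median 11.38), 12.8-fold and 5.55-fold above the other tissues. CCL3L1, a relative of the macrophage inflammatory protein CCL3, ranged from 6.77 to 9.80 in spleen (median 9.20), a difference of 10.5-fold. CXCL10, an interferon-induced attractant of T cells, ranged from 7.58 to 11.97 in spleen (median 10.07) and from 7.82 to 10.29 in liver (median 8.73), 8.7-fold and 4.22-fold above the other tissues. Spleen and liver overlapped for CXCL10.

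**Figure D2:**
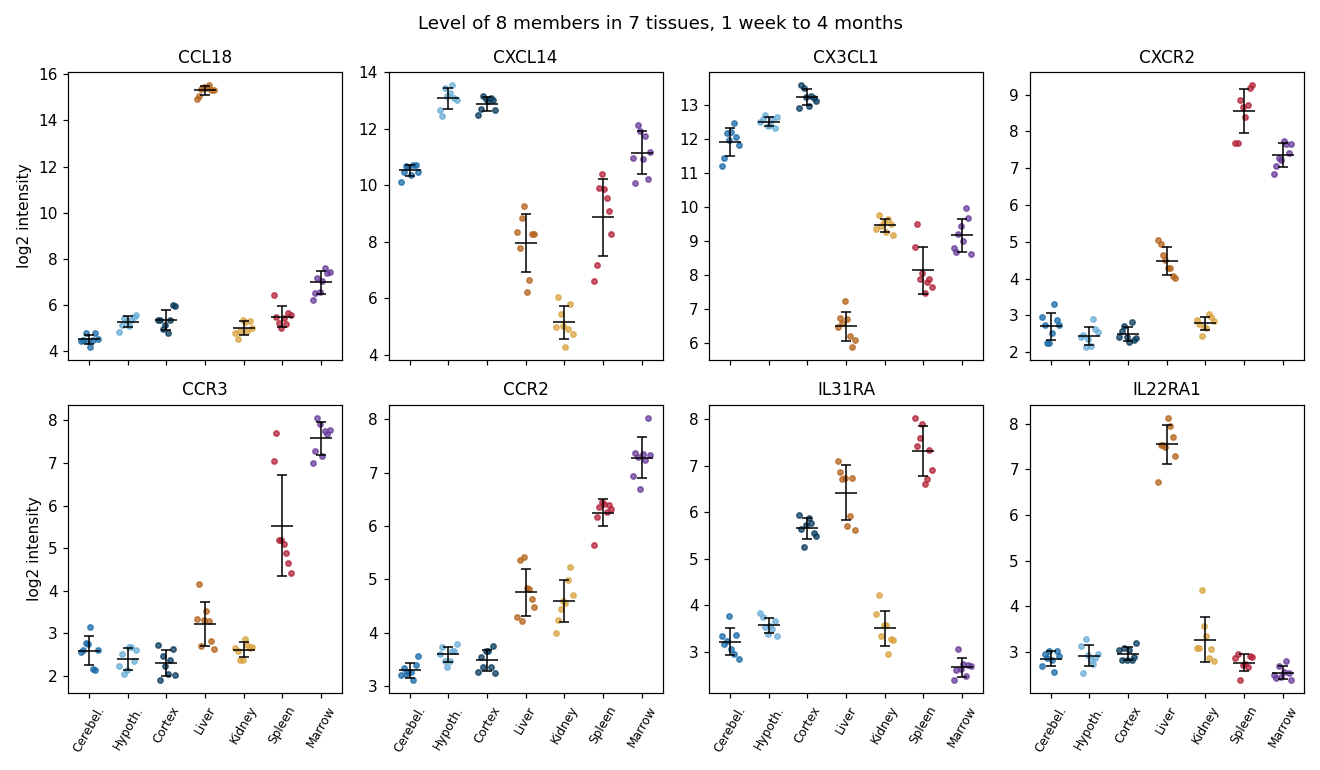
Level of 8 members (log2 intensity, vertical axis) in the 7 tissues. Each point is 1 of 8 samples from 1 week to 4 months, the horizontal bar is the mean and the error bar 1 standard deviation. CCL18 and IL22RA1 separate liver from the rest, CCR3 and CCR2 are highest in bone marrow, CXCR2 and IL31RA in spleen.

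Chemokine receptors were found mainly in spleen and bone marrow. CXCR2, the receptor by which neutrophils follow CXCL2 and IL8, ranged from 7.69 to 9.26 in spleen (median 8.69) and from 6.85 to 7.75 in bone marrow (median 7.36). It was at least 22.7-fold and at least 8.63-fold higher than in the other tissues (adjusted p = 2.9e-36 and 1.1e-29, limma). CXCR3, the receptor of CXCL10 and CXCL11 on activated T cells, ranged from 5.39 to 8.36 in spleen and from 5.22 to 7.04 in bone marrow, at least 9.09-fold and at least 3.98-fold higher. CCR3, the eotaxin receptor of eosinophils, ranged from 6.99 to 8.06 in bone marrow (median 7.71), at least 15.8-fold above the other tissues, and CCR2, the receptor by which monocytes leave the marrow, from 6.69 to 8.03 (median 7.31), 7.75-fold above. Of the 4 probes of CCR2, probe 3 had means of 5.42 to 6.15 outside spleen and bone marrow, where the others were lower, with 1.98 to 5.09. In cortex, hypothalamus and cerebellum, CXCR2, CXCR3 and CCR3 were well above background in none of the 24 samples.

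Among the interleukin receptors, IL22RA1 was high in liver. It is the subunit by which epithelial cells and hepatocytes respond to IL22. The livers ranged from 6.73 to 8.13 (median 7.54) and the other samples from 2.38 to 4.34, a difference of at least 23-fold (adjusted p = 1.8e-40, limma). IL13RA1, a receptor subunit for IL13 and IL4, ranged from 10.52 to 10.95 in liver (median 10.61), 4.64-fold higher. IL31RA, a receptor subunit for the itch-related IL31, was high in spleen (6.59 to 8.03, median 7.38), liver (5.61 to 7.10, median 6.72) and cortex (5.26 to 5.94, median 5.69), at least 8.36-fold, 4.07-fold and 2.19-fold above the other tissues, respectively. The rest of the 7 compared tissues reached at most 4.21, and in bone marrow the 8 samples did not exceed 3.06. Testis, which was not compared, had 5.80 at 1 week and 8.93 at 4 weeks. IL18RAP, a signalling subunit of the IL18 receptor, ranged from 4.73 to 5.93 in bone marrow (median 5.26), at least 4.14-fold higher.

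Some members were low in cerebellum and were singled out after their values were seen. IL18, a cytokine released by inflammasomes, ranged from 3.89 to 5.14 in cerebellum and from 8.57 to 10.71 in spleen, 10.0-fold below and 7.61-fold above the respective other tissues. It was well above background in 3 of the 8 cerebellum samples. IL4R, the receptor subunit shared by IL4 and IL13, ranged from 4.00 to 4.59 in cerebellum, 7.08-fold lower, with no overlap, and from 7.33 to 8.81 in spleen, 3.85-fold higher.

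The brain regions had few members at a higher level beside CX3CL1 and CXCL14. In cerebellum, IL17RE, a receptor subunit for IL17C, ranged from 7.41 to 7.93 (median 7.70), 2.13-fold higher. In hypothalamus, IL17RB, the receptor of IL17B and IL25, ranged from 4.95 to 6.04 (median 5.69), 3.09-fold higher. In cortex, IL1RAPL2, a brain relative of the IL1 receptor accessory protein, ranged from 4.28 to 4.91 (median 4.70), 2.28-fold higher. IL10RA, the ligand-binding subunit of the IL10 receptor, was 2.62-fold higher in hypothalamus and 2.31-fold higher in cortex. Its 2 probes disagreed, with means of 13.14 in hypothalamus and 9.90 in spleen for probe 1, but 7.63 in hypothalamus and 9.18 in spleen for probe 2, which was brightest in spleen.

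Spleen and bone marrow were compared directly because both hold many leukocytes. In spleen, 15 members (16.3%) were higher, against 5.21% of all genes, and 6 (6.52%) were lower, against 5.89%. IL31RA was at least 18.2-fold higher in spleen (adjusted p = 5.9e-28, limma), with no bone marrow sample well above background. CXCL10 was 4.52-fold higher, CXCR6, a receptor on T cells and natural killer cells, 4.15-fold, IL17B 3.54-fold, the neutrophil attractant CXCL1 3.38-fold and IL6ST 3.02-fold. The ranges of IL31RA, IL17B and IL6ST did not overlap between both organs, whereas those of CXCL10, CXCR6 and CXCL1 did. In bone marrow, CXCL14 was 4.9-fold higher, CCR3 4.14-fold, IL18RAP 2.89-fold, CCL18 2.81-fold, CX3CL1 2.05-fold and CCR2 2.05-fold. With an offset of 50, IL18RAP, CCL18, CX3CL1, CCR2, IL17B and CXCL1 no longer reached 1 log2 unit. Nor did CX3CL1 without the samples of 4 weeks, 2 months or 4 months, or CCR2 without those of 1 week or 4 months. For CX3CL1 the difference rested on probe 1, which had a mean of 10.32 in bone marrow and 8.59 in spleen, while probe 2 had 7.99 and 7.66. Age moved some of these values, as CCR3 in spleen was 7.05 and 7.70 at 1 week but 4.42 to 5.19 from 4 weeks on.

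To ask how the members change as the young animal matures, the 4 samples at 2 and 4 months were compared with the 4 at 1 and 4 weeks within each tissue. Members passed at an adjusted p under 0.05. In kidney 6 of 92 members (6.52%) were higher and 2 (2.17%) lower, where 8.41% of all genes passed. In bone marrow 5 (5.43%) passed, against 0.793% of all genes, and in spleen 4 (4.35%), against 3.09%. In cortex 4 (4.35%) passed, against 1.69%, and in liver 1 (1.09%), against 1.8%. The shares in kidney, spleen and liver were near those of all genes. No member passed in cerebellum or hypothalamus, where 2.27% and 0% of all genes did. There limma gave 9 and 14 members with an unadjusted p under 0.05, a threshold for which the share of all genes is not given here. All 13 that passed in spleen, bone marrow and cortex were higher in the older samples, and of all genes that passed 49.7%, 85.6% and 54.5% were higher there, so that the direction in bone marrow was also that of most genes that passed. Median scaling gave 3 higher and 1 lower in spleen and the authors' values 3 higher and 2 lower in cortex.

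In spleen, CXCR3 rose from 5.90, 5.39, 6.79 and 6.61 in the younger to 8.36, 8.19, 7.80 and 7.98 in the older samples (female before male, by age, here and below). The change was 1.91 log2 units or 3.76-fold (SE 0.30, adjusted p = 0.018, limma), with no overlap between the age groups. CCL8, an attractant of monocytes and T cells, rose from 3.37, 3.88, 3.68 and 4.77 to 6.07, 5.47, 6.34 and 5.58, a change of 3.84-fold (SE 0.32 log2 units, adjusted p = 0.019). CXCL11, a ligand of CXCR3, rose from 4.44, 4.57, 5.27 and 4.62 to 6.83, 5.93, 6.36 and 5.61 (2.75-fold, adjusted p = 0.034). IL4I1, an amino acid oxidase induced by IL4, rose as well, with 7.79, 8.15, 8.36 and 8.10 in the younger and 9.12, 8.89, 8.90 and 8.57 in the older samples (1.71-fold, adjusted p = 0.049). With sex as a block the adjusted p of IL4I1 was 0.086.

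In spleen, CXCR6 and CCL3L1 were lower at 1 week than from 4 weeks to 4 months, a difference that was not tested. CXCR6 was 5.33 and 5.07 at 1 week and between 7.90 and 9.18 from 4 weeks on. CCL3L1 was 7.05 and 6.77 at 1 week and between 8.96 and 9.80 later. The comparison of 4 older with 4 younger samples did not pass for either of them (adjusted p = 0.20 and 0.14, limma). Spleen markers of other cell types moved along this axis. The summed intensity of 13 T cell markers was 1670 to 7159 in the younger and 8893 to 11493 in the older spleens, with CD8A and CD28 not well above background, and 1 of the 13 passed as higher. That of 9 B cell markers was 3465 to 7472 and 10080 to 12375 (2 passed), of 6 natural killer cell markers 1090 to 2250 and 2708 to 4478 (none passed), and of 9 neutrophil markers 1190 to 5947 and 662 to 1064 (3 lower). The 11 macrophage and monocyte markers summed to 42986 and 36407 at 1 week, 106206 and 97171 at 4 weeks and 92099 to 112092 later (none passed). Their part in the changes of the members was not tested.

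In bone marrow, CCL5 rose from 10.04, 10.39, 11.04 and 10.59 to 12.12, 12.53, 11.87 and 11.71 (2.91-fold, SE 0.25 log2 units, adjusted p = 0.029, limma). The size depended on the probe, with 2.70 log2 units for probe 1 and 0.38 for probe 2, which was the brighter of both. CCL3L1 rose from 7.19, 6.27, 6.63 and 6.17 to 7.91, 8.08, 8.19 and 8.09 (2.83-fold, adjusted p = 0.022). CCL14, a chemokine present in plasma, rose from 5.72, 6.00, 6.18 and 5.96 to 7.34, 6.65, 7.69 and 7.28 (2.42-fold, adjusted p = 0.038). CXCR3 rose from 5.98, 5.44, 5.47 and 5.22 to 6.49, 6.81, 7.04 and 6.40 (2.23-fold, adjusted p = 0.044). IL1RL1, the receptor of IL33, rose from 3.02, 3.07, 3.47 and 3.62 to 4.18, 4.20, 4.55 and 4.50 (2.09-fold, adjusted p = 0.037). The groups did not overlap for any of these 5, which adds no support because they had passed the test on the same samples. With sex as a block the adjusted p was 0.05002 for CCL5, 0.050 for CCL14, 0.053 for CXCR3 and 0.061 for IL1RL1. With the authors' normalized values no member passed in bone marrow and with median scaling 1 did. Leaving out 1 sample gave 0 to 6. The 13 T cell markers summed to 434 to 1188 in the younger and 3122 to 4541 in the older marrows (6 higher, with CD6, CD4, CD8A and CD28 not well above background), and the 6 natural killer cell markers to 1300 to 1588 and 2057 to 2908 (3 higher). The 11 macrophage and monocyte markers summed to 14040 to 17301 in the younger and 21483 to 35061 in the older marrows, without overlap (1 higher). Their part was not tested.

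In kidney, the share of members that passed was near that of all genes. CXCR3 rose there from 3.28, 3.21, 3.53 and 2.62 to 4.81, 5.09, 4.31 and 4.31, at least 2.27-fold (adjusted p = 0.010, limma). It was well above background in 2 older and no younger samples. It passed in all 8 fits that left out 1 sample, while CCL14 of cortex and CXCR3 of bone marrow passed in none of theirs and the other age calls in 1 to 6 of 8. CCL14 rose from 4.92, 5.12, 5.37 and 4.56 to 6.69, 6.99, 5.68 and 7.26 (3.17-fold, adjusted p = 0.017), and CXCR6 from 3.33, 3.60, 4.27 and 3.57 to 4.73, 5.54, 4.87 and 4.40 (at least 2.25-fold, adjusted p = 0.027). In a fit of all 56 samples, which shares the spread and has slide as a term, the adjusted p of CXCR6 was 0.33 (limma). CCL24, an eotaxin, rose 1.68-fold (adjusted p = 0.033), but its probes had tissue means of 9.47 to 9.77 and 10.23 to 10.80, while an entry of the same gene listed by accession had means from 3.63 to 7.37 and changed by -0.51 log2 units in kidney (adjusted p = 0.40, limma). CCL5 rose 2.82-fold (adjusted p = 0.042) and IL28A, in man an interferon lambda, 1.38-fold (adjusted p = 0.048). Of the 8 kidneys, IL28A was well above background in 2 and CXCR6 in 3, so their differences involve signals near background. Both members that fell are cytokines of epithelia. IL18 fell from 7.02, 7.32, 6.85 and 7.16 to 5.84, 5.92, 6.90 and 6.12, by 0.89 log2 units (adjusted p = 0.042), and IL25 from 5.35, 5.36, 4.46 and 4.39 to 3.97, 4.11, 4.10 and 3.72, by 0.91 log2 units (adjusted p = 0.047). IL25 was well above background in 4 of the 8 kidneys. The groups overlapped for CCL5 and IL18, since the 4-month female (8.67 for CCL5 and 6.90 for IL18) resembled the younger samples. Without her, 17 members passed in kidney. The share of all genes in that fit is not given here, so this count does not set the members apart from all genes. With sex as a block the adjusted p was 0.052 for CCL5, 0.058 for IL18, 0.064 for IL25 and 0.064 for IL28A. The T cell markers summed to 382 to 524 in the younger and 511 to 1084 in the older kidneys (5 of 13 higher, with CD4, CD8A, CD28 and TRAT1 not well above background), and the B cell markers to 2205 to 2795 and 3069 to 5763 (3 of 9 higher). Their part was not tested.

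In liver, IL18 fell from 8.58, 8.33, 8.13 and 8.42 to 7.72, 7.75, 7.65 and 7.69, by 0.67 log2 units (SE 0.14, adjusted p = 0.046, limma), with no overlap, and with sex as a block the adjusted p was 0.069. The T cell markers summed to 383 to 549 in the younger and 710 to 979 in the older livers (4 of 13 higher, with CD4, CD8A, CD28 and TRAT1 not well above background), and their part was not tested. In cortex, CCL3L1 rose from 4.07, 3.85, 4.10 and 4.45 to 5.06, 5.13, 5.40 and 5.08 (2.07-fold, adjusted p = 0.017), CCL14 1.80-fold (adjusted p = 0.048), CCL5 1.76-fold (adjusted p = 0.025) and IL17RB 1.57-fold (adjusted p = 0.027). For IL17RB probe 2 changed by 0.90 and probe 1 by 0.40 log2 units. In the fit of all 56 samples, which shares the spread, no member passed in cortex either without or with slide. With slide, the adjusted p of the 4 cortex members lay between 0.65 and 0.86 (limma). In cortex the T cell markers summed to 387 to 431 in the younger and 385 to 453 in the older samples, where 2 of the 13 passed as higher and 6 were not well above background. The 3 markers of spleen and bone marrow summed to 28.7 to 60.3 and 75.9 to 120.1 (1 higher, with PTPRC and LCP1 not well above background), and the 11 macrophage and monocyte markers to 4269 to 5346 and 5239 to 7182 (1 higher). Their part was not tested.

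**Figure D3:**
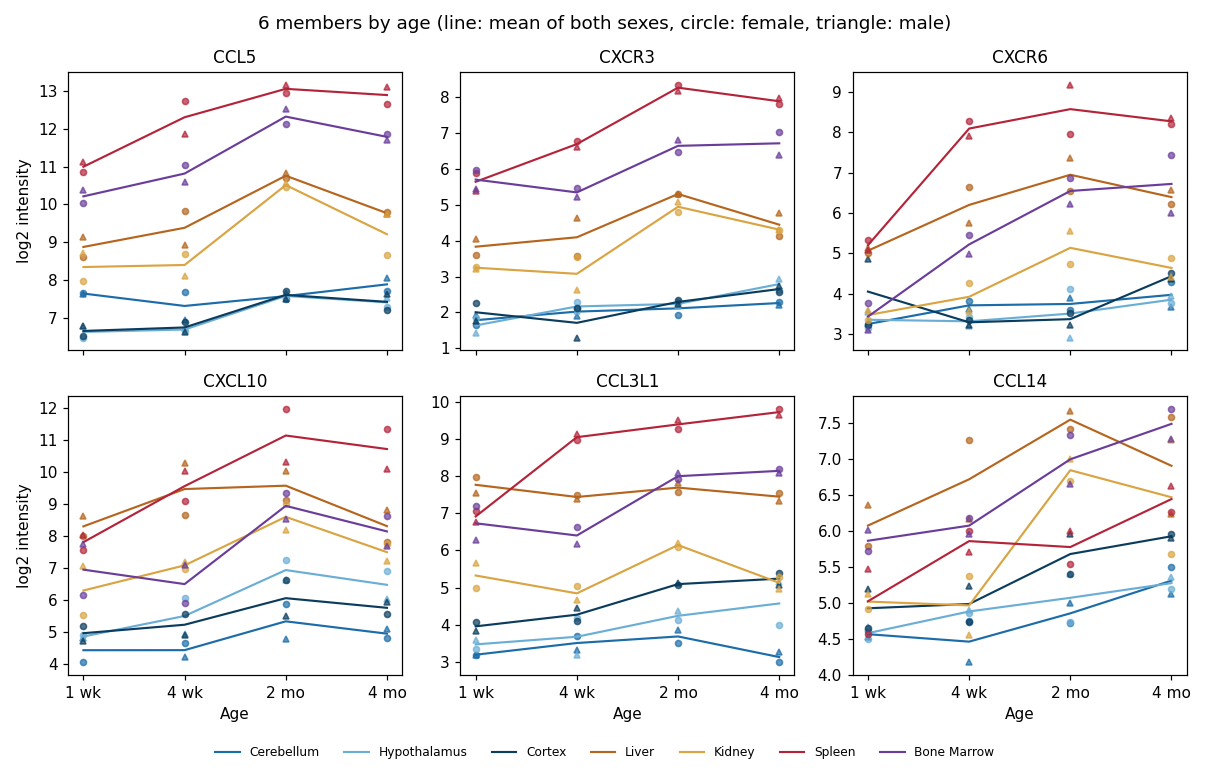
Level of 6 members (log2 intensity, vertical axis) at 4 ages in 7 tissues. Circles are females, triangles males, and lines join the means of both sexes. CXCR3 in spleen goes from 5.39 and 5.90 at 1 week to 8.19 and 8.36 at 2 months, while CXCR6 in spleen has most of its change between 1 and 4 weeks.

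Because the same members recurred between tissues, the 8 means over the 7 tissues (1 for each age and sex) were compared as 4 older against 4 younger. This comparison was added after the values of the single tissues had been seen. Of the 92 members 13 (14.1%) were higher, against 5.71% of all genes, and 1 (1.09%) was lower, against 6.53%. CXCR3 rose by 0.99 log2 units (SE 0.08, adjusted p = 0.0013, limma), CCL3L1 by 0.79 (adjusted p = 0.0038), CCL14 by 0.90 (adjusted p = 0.0054), CCL5 by 1.06 (adjusted p = 0.0099), CXCR6 by 1.04 (adjusted p = 0.019) and CXCL10 by 1.22 (adjusted p = 0.022). CXCR3, CCL14, CCL5, CXCR6 and CXCL10 had a higher mean in the older samples of all 7 tissues, and CCL3L1 in 6. In the brain regions CXCR3 stayed between 1.29 and 2.94, not well above background. CXCR6 was well above background there in only 1 of 8 cerebellum, 1 of 8 hypothalamus and 3 of 8 cortex samples. The others that passed, CCL24, CXCL11, IL18BP, CCL16, CCR9, IL13 and IL2RG, changed by 0.20 to 0.37 log2 units. CCR9 was well above background in 1 of 72 samples, so its difference is one of signals near background, and CCL16 was so in 14 and IL2RG in 24. IL31RA fell by 0.37 log2 units (adjusted p = 0.029), and its mean was higher in the older samples of 1 tissue.

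**Figure D4:**
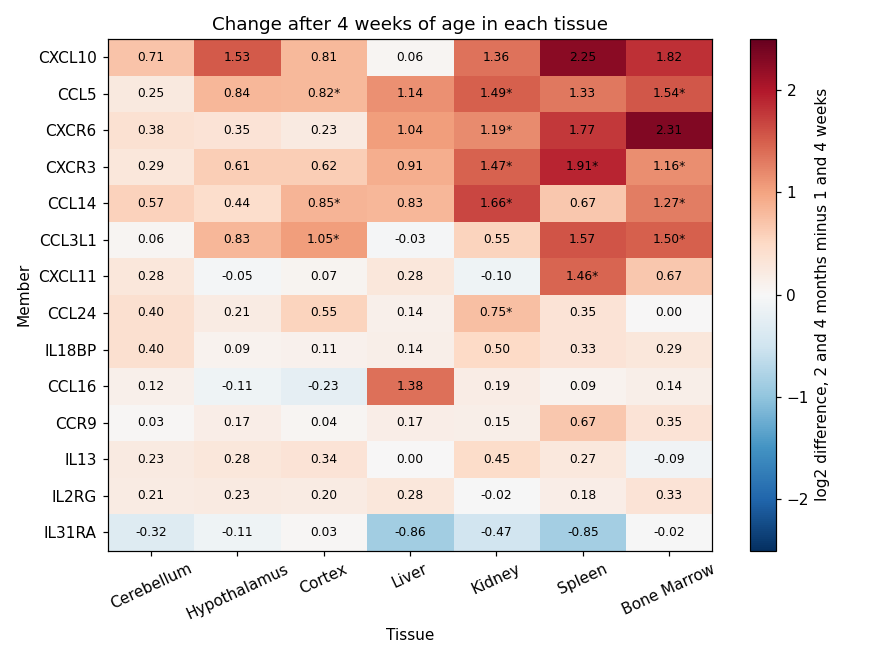
Change of the 14 members that passed over the 7 tissues (rows) in each tissue (columns). Numbers and color give the log2 difference of the samples at 2 and 4 months minus those at 1 and 4 weeks, and an asterisk marks an adjusted p under 0.05 within the tissue. CXCR3, CCL5, CCL14, CXCR6 and CXCL10 are positive in all 7 tissues. In the brain regions, no sample was well above background for CXCR3 and few were for CXCR6.

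Spleen and bone marrow were tested for a different change with age. No member passed in limma (0.337% of all genes did). An unadjusted p under 0.05 was found for 9 members, without a share of all genes at that threshold to set beside it. The smallest adjusted p was 0.32 for IL1RAPL2, whose change was 0.44 in spleen and -0.40 in bone marrow. Between males and females of the same tissue and age, no member passed (0.261% of all genes did). Here 5 members had an unadjusted p under 0.05, again without the share of all genes at that threshold. IL17RE had the smallest adjusted p, 0.37, with a difference of -0.13 log2 units (male minus female) and a higher male value in 9 of 28 pairs.

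Testis and ovary had 1 sample per age, so steps of at least 2 log2 units between successive ages were counted and not tested. In testis, IL4I1 was 8.59 and 11.44 in the younger males and 14.83, 15.16 and 14.76 from 2 months on. IL28A was 4.02 and 3.93 before 2 months and 8.44, 7.06 and 6.15 after. IL31RA went from 5.80 to 8.93 between 1 and 4 weeks and was 7.28, 7.43 and 6.44 later. CCL27, the ligand of CCR10 that draws T cells to the skin, was 7.12 at 2 months and 6.12 at 2 years, but 3.65, 4.12 and 4.24 at the other ages. CXCL14 went from 5.77 at 1 week and 7.66 at 4 weeks to 4.63 and 3.02 at 2 and 4 months and was 5.66 at 2 years, and CXCL10 went from 6.16 to 3.89 between 2 and 4 months. In successive steps the testis had 2, 4, 2 and 1 members with such a change, beside 1.59%, 8.55%, 0.32% and 0.51% of all genes. The 11 macrophage and monocyte markers summed to 6466 at 1 week, 4947 at 4 weeks and 1499, 735 and 992 from 2 months on, and the 5 testis markers to 69108 and 66309 and then 142109, 150351 and 144282. Their part was not tested.

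In ovary, 4 of 5 steps lay between 2 and 4 months. CCL18 was 10.88, 9.47 and 10.19 at the 3 younger ages and 7.23 at 4 months. CXCL10 was 8.36, 9.98 and 10.12 and then 7.32, CXCL14 10.18, 9.07 and 10.21 and then 8.18, and IL28A 6.32, 5.10 and 7.16 and then 4.69. The steps held 0, 1 and 4 members, beside 0.438%, 1.16% and 2.55% of all genes. Between 2 and 4 months the 5 testis markers, which include the steroid synthesis gene STAR, went from a sum of 1893 to 17026 in ovary, the 7 endothelial markers from 756 to 1490 and the 11 macrophage and monocyte markers from 7515 to 9680. Their part was not tested.

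In the 2-year male, the sample labelled bone marrow, whose tissue is in doubt as given above, differed most from the 4-month male, with 7 members apart by at least 2 log2 units, beside 5.83% of all genes. CCR3 was 3.96 against 7.76, CXCR2 4.04 against 7.65, IL18RAP 2.83 against 5.31 and CCR2 5.10 against 7.34. CXCL2, a ligand of CXCR2, was 9.71 against 6.31, CXCL14 13.73 against 11.17 and IL1A 5.03 against 2.74. The neutrophil and erythroid markers given above differed between the same samples, and the 7 endothelial markers summed to 4590 against 1933. Their part was not tested. In liver of the 2-year male CXCL10 was 11.49 against 8.80 and CCL16 6.24 against 8.31 (2 members, beside 0.742%), and in spleen CX3CL1 was 10.64 against 7.63 (1 member, beside 1.05%). Cerebellum, hypothalamus, cortex and kidney had no such member, beside 0.274%, 0.472%, 0.249% and 0.316% of all genes. Renal pelvis had 3 members above kidney of the same male, beside 2.35% of all genes. CXCL2 was 11.30 against 6.46, CXCL1 5.48 against 3.12 and IL1A 4.64 against 2.45. The macrophage and monocyte markers summed to 7313 against 2377 and the endothelial markers to 2847 against 1414, and their part was not tested.

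**Figure D5:**
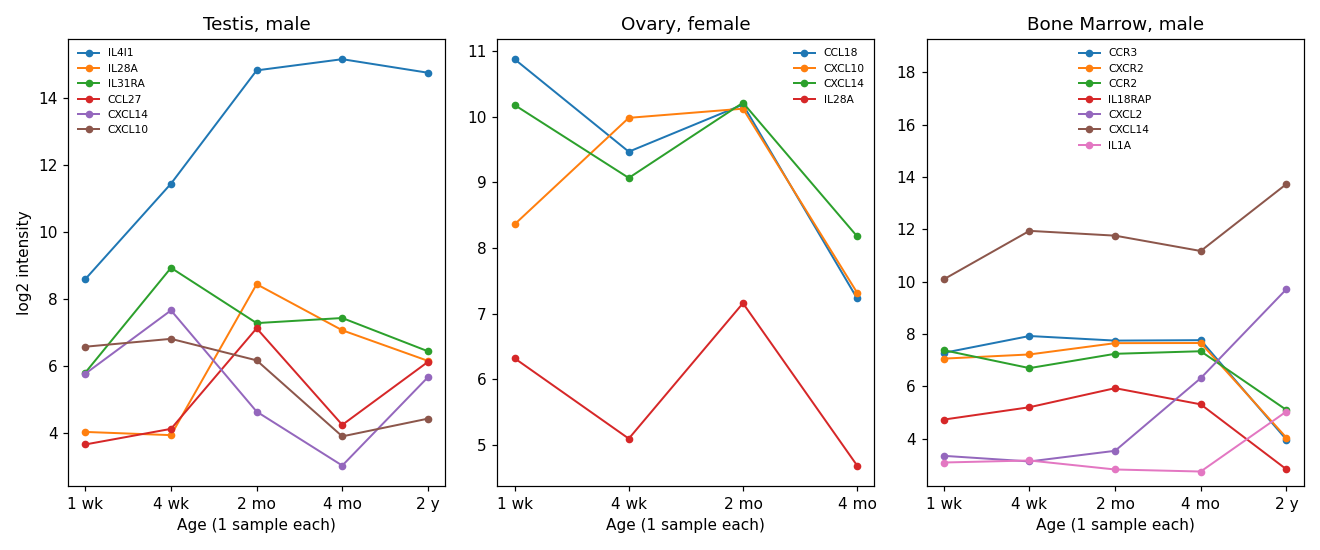
Level of selected members (log2 intensity, vertical axis) by age in testis, ovary and male bone marrow, with 1 sample per point. IL4I1 in testis reaches 14.83 at 2 months, CCL18 in ovary is 7.23 at 4 months, and CCR3 and CXCR2 are 3.96 and 4.04 at 2 years in the sample labelled bone marrow, whose nearest sample was a spleen.

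Ligands and receptors did not share a tissue pattern throughout. CXCR3 and its ligand CXCL10 were highest in spleen, with means of 7.13 and 9.81, whereas the ligand CXCL11 was highest in liver with a mean of 6.60. CXCR2 had means of 8.56 in spleen and 7.36 in bone marrow, while its ligands CXCL2 and IL8 ranged over the 7 tissue means from 3.97 to 5.37 and from 3.71 to 4.18. IL13RA1 had means from 6.69 in cerebellum to 10.66 in liver, and its ligand IL13 from 7.80 to 8.53. IL17B was highest in spleen with 6.45 and its receptor IL17RB in hypothalamus with 5.65. CCR1, a receptor of CCL5, ranged from 2.30 to 3.44, and IL1RL1 and its ligand IL33 from 2.59 to 3.83 and from 2.46 to 3.31. CCR10, the receptor of CCL27, ranged from 3.98 to 4.59.

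Signalling genes downstream of these receptors and family members that the array lists by accession were counted as well. These lists were chosen with earlier results of these data known, so their counts are no independent support for the pattern of the members. Of 33 signalling genes 15 were higher in spleen, against 8.83% of all genes, and 9 in bone marrow, against 10.5%, with none lower in either, while 1 was higher and 11 were lower in cerebellum, against 9.78% and 10.1%. JAK3, the kinase bound to IL2RG, was 3.01 log2 units above the other tissues in spleen and 2.18 in bone marrow. In spleen 4 rose with age and none fell, while 3.09% of all genes passed. Of 33 family members named through RefSeq, 16 were higher and 1 was lower in spleen, 9 and 4 in bone marrow, and 6 and 2 in liver. All genes had 8.83% higher and 10.1% lower in spleen, 10.5% and 12.1% in bone marrow, and 9.89% and 11.6% in liver. In the brain regions 2 were higher in each, and 13, 12 and 11 were lower in hypothalamus, cortex and cerebellum, against 7.88%, 9.43% and 10.1% of all genes. CXCL13, which organizes B cell follicles, had a mean of 10.00 in spleen, 6.35 log2 units above the other tissues. CXCR4, which retains blood-forming cells in the marrow, was highest in bone marrow with a mean of 7.75. In spleen CXCL9, the further ligand of CXCR3, rose by 3.25 log2 units with age (adjusted p = 0.0062, limma) and CCL26 by 3.47 (adjusted p = 0.022).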

How the data were processed

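RNA of 72 minipig tissue samples and renal pelvis was measured on 80 one-color arrays, 8 of them technical repeats of 1 kidney, which were averaged. Per the file headers, the authors deposited raw spot intensity values from Agilent Feature Extraction 11.5.1.1, and the deposited series table holds their quantile-normalized log2 values, used as an alternative. Per the methods, the authors designed the probes on a minipig transcriptome that they predicted by mapping to the Duroc pig genome, with RefSeq pig mRNAs added, and no coordinates are used here. Median raw gene intensity per array was 27 to 89 and that of negative controls 17 to 25, and the number of arrays limits the precision.

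Here, spots with an outlier flag were left out, and median intensity was background-corrected (normexp, offset 0), quantile-normalized and log2-transformed. Spots were averaged to probes and probes to 23722 genes. limma 3.58.1 (R 4.3.3) was fitted on all genes with Benjamini-Hochberg adjustment, and the scripts were tested on simulated data. Members and gene lists were chosen with earlier results of these data known. Named are, per tissue, the 6 members with the largest positive difference, all that passed with age up to 8, the 6 largest in each direction between spleen and bone marrow, the 5 largest steps elsewhere, and their ligands or receptors. Samples up to 4 months lay on 9 slides with at most 1 sample of a tissue each, so no value within a slide exists. Alternatives included other scaling, offset, probes, slide and left-out samples.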

Additional observations from a re-analysis of the deposited data

Results flagged for a closer look

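Of 73 groups of 4 or 8 samples, 3 held a sample far from the others, and chance gives about 1 in 20. In hypothalamus, IL17RB was 4.95 in the 4-week male and 5.53 to 6.04 in the other 7 samples. In cortex, CCL14 was 5.40 in the 2-month female and 5.89 to 5.96 in the other 3 older samples, and IL17RB was 4.17 in the 4-week female and 4.30 to 4.32 in the other 3 younger samples.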

How the results depend on the processing

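No difference of a named member changed its direction. Of 432 values of named members in the tissue comparisons 419 stayed on their side of the threshold, of 179 between spleen and bone marrow 161, and of 430 with age 235. The cause was not tested. With an offset of 50, which by construction shrinks dim differences, 8 members passed in cerebellum, 8 in hypothalamus, 8 in cortex, 11 in liver, 3 in kidney, 15 in spleen, 7 in bone marrow and 8 between spleen and bone marrow, and IL17RE, IL17RB, IL1RAPL2, IL31RA (cortex and liver) and, in bone marrow, CXCR3 and IL18RAP were among those that no longer passed. With at least 2 log2 units the counts were 8, 6, 5, 10, 2, 13, 7 and 5. Of the counts of steps of at least 2 log2 units without replicates, the offset gave 2 in testis from 4 weeks to 2 months and 0 in both later testis steps, 0 in ovary from 4 weeks to 2 months and 2 from 2 to 4 months, 1 in liver and 4 in bone marrow of the 2-year male, and 1 in renal pelvis. The processed signal gave 5 in testis from 1 to 4 weeks, 3 from 4 months to 2 years, 2 in ovary from 4 weeks to 2 months and 1 in kidney of the 2-year male.

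With age, a fit of all 56 samples, which shares the spread, gave 24 members in spleen without and 19 with slide, 16 and 12 in bone marrow, 6 and 5 in liver, 1 and 1 in cerebellum and 0 and 0 in cortex. Kidney and hypothalamus are not given for this fit. For the counts of members in this section, the shares of all genes are not given. The counts therefore show only how far the calls depend on the setting, not whether the members stand out from all genes. Kidney had 4 members with the 2-year male added, with an offset of 50 and with sex as a replicate block, and 5 with median scaling and with specific probes. Bone marrow had 0 with the 2-year male and with the authors' values, 1 with median scaling and the sex block, 2 with specific probes and 3 with the offset. Liver had 2 with the authors' values and the offset and 0 with median scaling, processed signal and the sex block. Spleen had 2 with the 2-year male and with specific probes, cortex 2 with specific probes, and cerebellum 1 with the 2-year male, the offset and the dim-gene filter. Over the 7 tissues 8 passed with median scaling and 9 with specific probes, and 1 member passed for the difference between spleen and bone marrow with the median of probes. Leaving out 1 sample gave 0 to 1 in cerebellum, 0 to 4 in cortex (0 without the 2-month female or the 4-month male), 0 to 1 in liver, 1 to 17 in kidney (17 without the 4-month female, 1 without the 1-week female or the 2-month male), 0 to 6 in spleen (6 without the 4-week female, 0 without the 2-month male or female or the 4-month female) and 0 to 6 in bone marrow (6 without the 4-week female, 5 without the 2-month male, 1 without the 1-week female and 0 without any other). The labels number no animals across ages, so the replicate block paired samples by sex.

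The share of all age calls that were higher moved with scaling, from 44% to 56.2% in kidney with processed signal, from 49.7% to 63.4% (processed signal), 62.7% (offset) and 37.2% (median scaling) in spleen, from 37.8% to 48.8% (offset) and 57.9% (median scaling) in liver, from 42% to 26.7% in cerebellum and from 46.7% to 33.7% over the 7 tissues (median scaling), and from 8.75% to 21.1% for the difference between spleen and bone marrow (offset). With median scaling the median of all genes was -0.22 in hypothalamus, -0.17 in kidney, 0.09 in liver, 0.12 in spleen and 0.14 in bone marrow, beside -0.11, -0.07, -0.05, 0.01 and 0.01. Signals near background limit CXCR3, CXCR6, CCR3 and CXCR2 in brain.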
